A study of Mus musculus with 8 samples.

Results

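The genes described here encode the enzymes that make serine, carry 1-carbon units on folate, build purines and pyrimidines, and run the methionine cycle. The 40 members were taken as a fixed list of named genes, looked up by symbol in a table of 23993 genes, and grouped into serine, folate, purine, pyrimidine and methionine steps. All 40 were found. RNA was sequenced from thoracic aortas of male C57BL/6 mice, with 4 libraries from controls and 4 from knockouts. The controls were Myh11-CreERT2.mT/mG animals with intact Tsc1, and the knockouts were Tsc1fl/fl.Myh11-CreERT2.mT/mG animals. Both groups therefore carried the tamoxifen-inducible Cre recombinase driven by Myh11, a smooth muscle myosin gene, and the mT/mG membrane colour reporter. Both received tamoxifen at 1.5 weeks of age and were analysed at 24 weeks.

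By their labels the samples are smooth muscle cells, yet the extraction protocol describes frozen whole aorta that was crushed and lysed, with no sorting step. RNA of endothelial cells, fibroblasts, fat and blood is thus part of every value. Fewer cells of a type and less RNA per cell cannot be told apart in such samples. The labels number the libraries within each genotype without saying that each came from a separate animal. If they did not, the p-values reflect no more than the spread among these 8 samples, part of which may then be technical.

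Tsc1 is a subunit of the TSC complex, which restrains the growth-promoting kinase complex mTORC1. mTORC1 is known to raise the synthesis of nucleotides: it acts on CAD, the enzyme that opens pyrimidine synthesis, through the kinase S6K1, and on serine and mitochondrial folate genes through the transcription factor ATF4. Serine is made from a glycolytic intermediate by Phgdh, Psat1 and Psph. Its side carbon passes to folate, and folate carries it to the purine ring, to thymidylate and to methionine. In an adult artery wall, where few cells divide, these nucleotides serve mainly RNA synthesis and repair.

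The knockouts carried less of the targeted transcript. Tsc1 was 5.03 ± 0.952 FPKM (SD, n = 4) in the controls and 3.41 ± 0.315 FPKM in the knockouts, with no overlap between the groups and a limma adjusted p of 0.0190. A fall was not particular to the targeted gene. Tsc2, which was not floxed, went from 39.4 ± 3.55 to 32.7 ± 1.23 FPKM, also without overlap (limma adjusted p = 0.0214). FPKM are fragments scaled to transcript length and to the size of the library. They can be compared between genes, and between libraries only as far as the library scaling holds. Each value covers the whole gene here, not only the floxed part. Summed over all genes, FPKM were 753105, 937271, 593264 and 483615 in controls 1 to 4 and ran from 453564 to 467703 in the knockouts. The summed FPKM of all genes other than small RNAs ran from 481972 to 490074 in the controls and from 451978 to 466794 in the knockouts. The absolute depth is unknown. Low values stepped in multiples that gave a relative depth from 0.763 of control 1 in knockout 1 to 2.45 of it in control 3. Summed smooth muscle markers ran from 17199.5 to 17590.1 FPKM in the controls and from 11279.3 to 15077.7 in the knockouts, and 4 of these 6 genes fell. Of the endothelial markers 5 of 6 fell, of the adventitial fibroblast markers 2 of 6, and of the Schwann cell and neuron markers all 4 that were tested. Of the fat cell, macrophage and red blood cell markers none passed, at 0 of 7, 0 of 7 and 0 of 3 tested by limma, and 0 of these had an unadjusted p under 0.05. The T and B cell list had 1 of its 6 markers tested, which did not pass, and Cd3e was at 0 in at least 1 library. The summed fat cell markers were at 929, 337, 271 and 296 FPKM in controls 1 to 4 and at 264, 238, 536 and 369 in knockouts 1 to 4. They were highest in control 1 and next highest in knockout 3. The summed striated muscle markers were at 9.22, 14.0, 13.7 and 262 FPKM in controls 1 to 4 and at 64.0, 4.40, 5.62 and 47.8 in knockouts 1 to 4. They were high in control 4 and, less so, in knockouts 1 and 4. Of 8 tested genes of that list 1 was lower, and Myh1, Myh2 and Myh4 were at 0 in at least 1 library. The heart myosin Myh6 was at 25.6 and 17.0 FPKM in knockouts 1 and 4 and at 0.118 to 1.58 in the other libraries, and did not pass. Actc1, cardiac actin, is outside that list and was looked at after its values were seen; it rose by a log2 difference of 3.17 (adjusted p = 0.000804). The part of these marker shifts in the results below was not tested, except where a value with a marker covariate is given.

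Of the 40 members, 37 reached a mean of 1 FPKM over the 8 libraries and were tested. Shmt1, Rrm2 and Cth did not reach it. Genotypes were compared with limma on log2(FPKM + 1), and calls needed an adjusted p (Benjamini-Hochberg, over all 12107 genes tested) under 0.05. On this scale 12 of 37 members passed (32.4%), against 32.2% of all genes tested. The 8 higher members made up 21.6% against 17.1% of all genes, and the 4 lower ones 10.8% against 15.0%. The FPKM of the groups did not overlap for 13 of 37 members (35.1%), against 33.9% of all genes. The members as a set were therefore called about as often as the rest of the transcriptome. The median log2 difference, knockout minus control, was 0.01 for the members and 0.01 for all genes. When the libraries were scaled to the sum without small RNAs, the split of called members moved from 8 higher and 4 lower to 10 higher and 1 lower, and that of all genes from 2074 and 1819 to 2956 and 1346. That scaling raised the median log2 difference of all genes to 0.08.

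**Figure D1:**
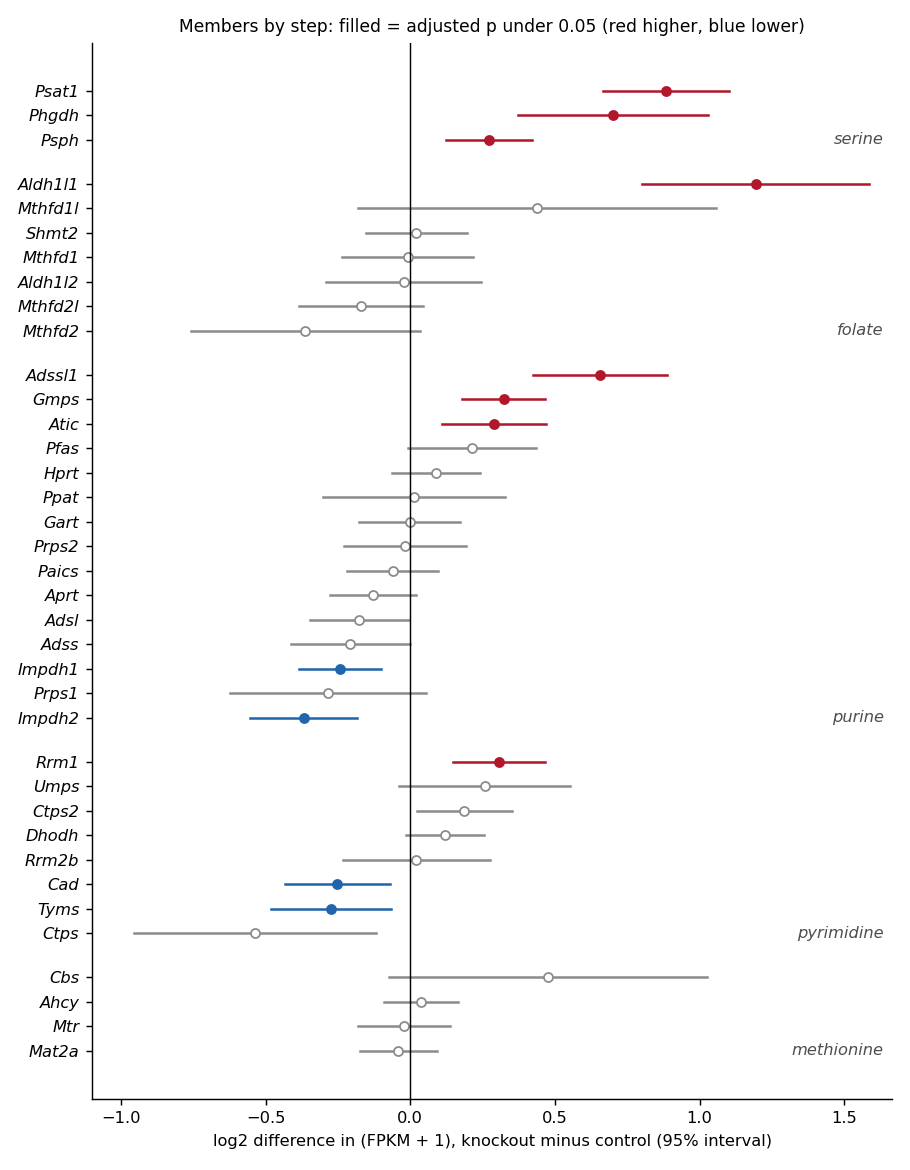
Log2 difference in (FPKM + 1), knockout minus control, of the 37 tested members on the x axis, grouped by metabolic step; points are limma estimates from 4 libraries per group and lines are 95% intervals. Filled red points are the 8 members called higher and filled blue points the 4 called lower. Aldh1l1 lies farthest right at 1.19, and all 3 serine genes lie to the right of 0.

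The upstream sequence of some members is shown because it lets the genes that rose be compared with each other. Windows of 250 bases before the RefSeq start on GRCm38.p6, the mm10 build, were available for 35 of the 40 members. They were searched on both strands for CCAAT, the box bound by NF-Y, for CACGTG, the E-box bound by Myc and Mlx-type factors, and for TGATGNAA, the core to which ATF4 binds with a partner. CCAAT was found in 33.8% of all 32851 windows. Counted by gene, with a match in any window of the gene, it was found in 40.2% of the 9096 tested genes with a window. By the same count it was found in 18 of the 35 members (51.4%). It was present in 6 of the 8 members called higher and in 0 of the 4 called lower. The other members with CCAAT were not called. These were Ahcy, Cbs, Ctps2, Gart, Mat2a, Mthfd1, Mthfd2, Mtr, Paics and Prps1, which did not pass, and Rrm2 and Shmt1, which were not tested. CACGTG was found in 6.02% of all windows, in 10.0% of those tested genes and in 5 members, which were Atic, Cbs, Impdh2, Paics and Tyms. TGATGNAA was found in 3.45% of all windows, in 2.36% of those tested genes and in 1 member, Prps1. The motifs were chosen with the expression values known, and a match describes letters in a window, not a bound site. The last 120 bases of 6 windows, all read 5′ to 3′ toward the gene, are given with CCAAT or its reverse complement ATTGG in capitals for 4 members that rose, and with CACGTG in capitals for Atic, which rose, and Tyms, which fell. Genes can have several annotated starts: 21 of the bases shown for Phgdh, 6 for Atic and 4 for Aldh1l1 lie in exons of upstream starts in GENCODE vM21, and the stretches of Aldh1l1 and Tyms reach into the RefSeq gene spans given with the values. They lie at chr3:98339970-98340089 on the minus strand (Phgdh), chr19:15925060-15925179 minus (Psat1), chr6:90550673-90550792 plus (Aldh1l1), chr7:102441575-102441694 plus (Rrm1), chr1:71557036-71557155 plus (Atic) and chr5:30073626-30073745 minus (Tyms).
Phgdh: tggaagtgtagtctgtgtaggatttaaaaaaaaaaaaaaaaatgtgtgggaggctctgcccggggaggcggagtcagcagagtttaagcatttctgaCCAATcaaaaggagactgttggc
Psat1: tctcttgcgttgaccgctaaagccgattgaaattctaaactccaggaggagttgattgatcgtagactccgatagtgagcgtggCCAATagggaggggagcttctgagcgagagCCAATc
Aldh1l1: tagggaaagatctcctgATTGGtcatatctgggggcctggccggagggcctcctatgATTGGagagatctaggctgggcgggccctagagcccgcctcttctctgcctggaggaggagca
Rrm1: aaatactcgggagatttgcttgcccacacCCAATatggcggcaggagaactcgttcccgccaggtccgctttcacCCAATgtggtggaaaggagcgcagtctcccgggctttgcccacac
Atic: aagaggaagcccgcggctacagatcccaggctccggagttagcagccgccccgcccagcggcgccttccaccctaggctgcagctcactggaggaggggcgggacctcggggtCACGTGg
Tyms: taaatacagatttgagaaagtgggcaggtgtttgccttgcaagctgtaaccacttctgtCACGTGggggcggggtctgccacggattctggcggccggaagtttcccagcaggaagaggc
Psat1, Aldh1l1 and Rrm1 each hold the CCAAT box at 2 places in this stretch, Phgdh at 1, and the E-box of Atic lies directly beside the start.

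All 3 enzymes of serine synthesis rose, where 17.1% of all genes tested were called higher. The first, Phgdh (chromosome 3, 98313171 to 98339969), oxidises the glycolytic intermediate 3-phosphoglycerate. It was at 5.32, 5.90, 5.22 and 7.55 FPKM in controls 1 to 4 and at 7.92, 12.4, 9.97 and 11.3 FPKM in knockouts 1 to 4. The groups did not overlap, but the highest control lay close to the lowest knockout. The mean rose from 6.00 ± 1.08 to 10.4 ± 1.94 FPKM, a fold of 1.74, with a log2 difference of 0.70 (SE 0.14, adjusted p = 0.00659). The call stood in 22 of 22 alternative analyses, which changed 1 setting or left out 1 library at a time.

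Psat1 (chromosome 19, 15905123 to 15925059) transfers the amino group. It was at 2.47, 2.72, 2.51 and 3.23 FPKM in the controls and at 5.55, 6.75, 6.08 and 5.20 in the knockouts. Every knockout lay well above every control. The mean rose from 2.73 ± 0.349 to 5.89 ± 0.677 FPKM, a fold of 2.16 and a log2 difference of 0.88 (SE 0.10, adjusted p = 0.000302).

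Psph (chromosome 5, 129765558 to 129787443) removes the phosphate to release serine. It was at 3.25, 3.20, 3.48 and 3.39 FPKM in the controls and at 4.06, 4.46, 4.44 and 3.96 in the knockouts. The groups were tight and did not overlap. The rise, from 3.33 ± 0.128 to 4.23 ± 0.260 FPKM, was 1.27-fold (log2 difference 0.27, SE 0.07, adjusted p = 0.0131). It was the smallest rise of the 3, and it did not pass with odd-numbered libraries alone (adjusted p = 0.0978) or even-numbered libraries alone (adjusted p = 0.0987), which leave 2 libraries in each group. Psph shares 10.4% of its exonic bases in GENCODE vM21 with Cct6a, and since the strand setting of the counting is not given in the sources used here, reads from that stretch cannot be told apart.

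**Figure D2:**
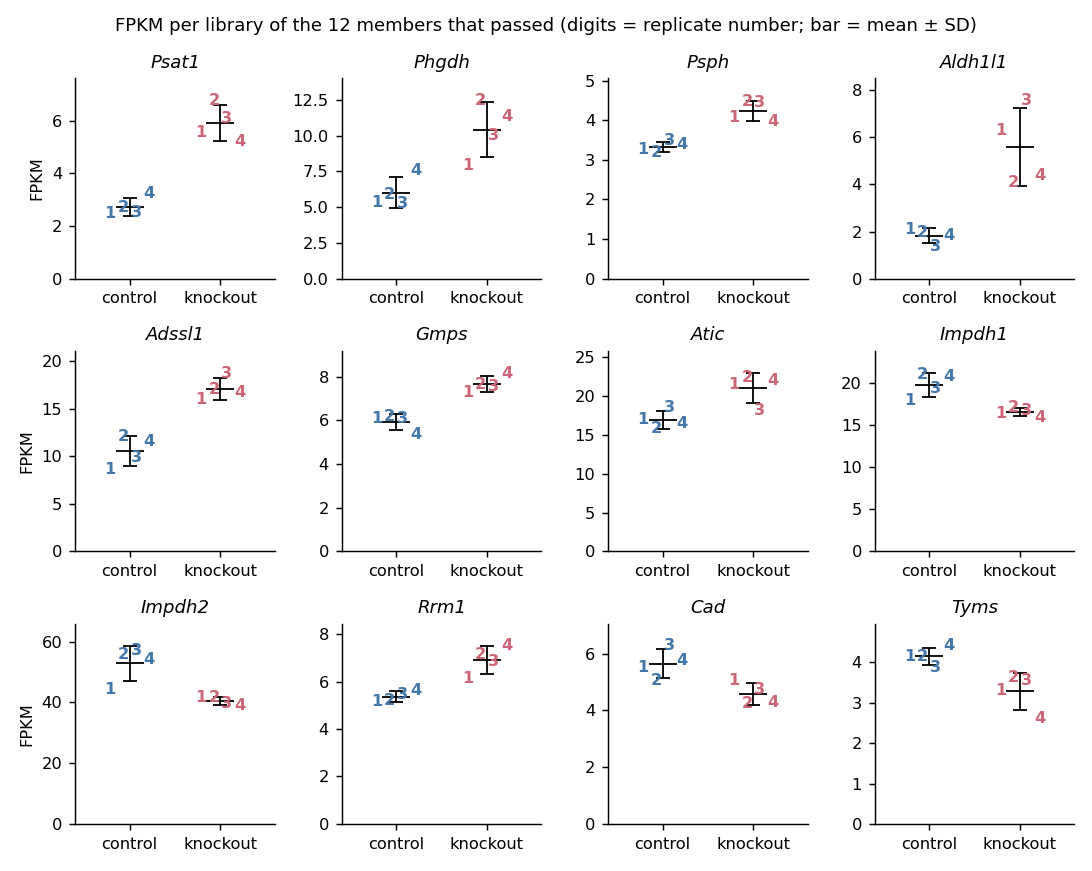
FPKM of the 12 members that passed, 1 panel per gene with the y axis from 0; digits are the replicate numbers of the 4 control (blue) and 4 knockout (red) libraries, and black bars are mean ± SD. In 10 panels the groups do not overlap; in Atic and Cad they do.

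Folate-bound 1-carbon units are handled by parallel enzymes in the cytosol and the mitochondria. Of the 7 folate members tested, 1 rose and 6 did not pass, which is 14.3% called against 32.2% of all genes, with a median log2 difference of -0.01. The gene that rose, Aldh1l1 (chromosome 6, 90550768 to 90599171), encodes cytosolic formyltetrahydrofolate dehydrogenase, which takes 1-carbon units out of the folate pool as carbon dioxide. It was at 2.09, 1.98, 1.38 and 1.85 FPKM in the controls and at 6.31, 4.09, 7.55 and 4.37 in the knockouts. Each knockout lay above each control, with knockouts 1 and 3 above knockouts 2 and 4. The mean rose from 1.82 ± 0.314 to 5.58 ± 1.65 FPKM, a fold of 3.06, and its log2 difference of 1.19 (SE 0.17, adjusted p = 0.00119) was the largest among the members. It was 1.25 with the fat cell markers as a covariate and 1.19 with the striated muscle markers. In all, 14 of the 40 members share exonic bases with another gene, 13 of them with one on the opposite strand. Aldh1l1 shares 11.0% with Gm15756, Aldh1l2 14.1% with D10Wsu102e, Gart 19.7% with Gm15964 and Mat2a 11.3% with Particl.

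Aldh1l2, the mitochondrial enzyme of the same reaction, was at 2.55 to 3.62 FPKM in the controls and at 2.64 to 3.60 in the knockouts (log2 difference -0.02, 95% interval -0.29 to 0.25). The groups overlapped fully. Shmt2, which splits serine into glycine and a 1-carbon unit in mitochondria, was at 14.5, 17.4, 14.7 and 17.4 FPKM in the controls and at 17.1, 16.0, 16.4 and 15.4 in the knockouts. Its log2 difference was 0.02, with a 95% interval from -0.15 to 0.19. Its cytosolic counterpart Shmt1 was at 0.115 to 0.760 FPKM in the controls and at 0.343 to 0.679 in the knockouts, too low to be tested.

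Mthfd2, the mitochondrial dehydrogenase and cyclohydrolase, is a known target of ATF4. It was at 10.5, 15.0, 9.35 and 16.1 FPKM in the controls and at 9.39, 8.33, 8.58 and 11.8 in the knockouts. The groups overlapped, and controls 2 and 4 stood above all other libraries. The difference did not pass, with a log2 value of -0.36 (95% interval -0.76 to 0.03, adjusted p = 0.145). Its isozyme Mthfd2l was at 4.39 ± 0.408 FPKM in the controls and 3.80 ± 0.507 in the knockouts (log2 difference -0.17, adjusted p = 0.205). Mthfd1, the cytosolic enzyme with 3 activities, was at 9.58 to 11.0 FPKM in the controls and 8.40 to 11.6 in the knockouts (log2 difference -0.01). Mthfd1l, which releases formate from mitochondria, was at 0.632, 1.49, 1.12 and 1.21 FPKM in the controls and at 0.952, 3.43, 1.08 and 2.57 in the knockouts. Knockouts 2 and 4 were high and knockouts 1 and 3 lay within the control range. Its log2 difference of 0.44 had a 95% interval from -0.18 to 1.06.

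Of the 15 purine members tested, 3 rose, 2 fell and 10 did not pass, which is 33.3% called against 32.2% of all genes, with a median log2 difference of -0.02. The purine ring is assembled on ribose phosphate by 6 enzymes, and 1 of these genes passed. Atic (chromosome 1, 71557156 to 71579403), which performs the last steps and uses formylfolate to close the ring, was at 17.0, 15.9, 18.6 and 16.5 FPKM in the controls and at 21.6, 22.4, 18.2 and 22.0 in the knockouts. Knockouts 1, 2 and 4 stood above all controls, while knockout 3 lay just below control 3. The mean rose from 17.0 ± 1.15 to 21.0 ± 1.93 FPKM, with a log2 difference of 0.29 (SE 0.08, adjusted p = 0.0224). The call was lost with the replicate number as a block (adjusted p = 0.0511), with odd-numbered libraries alone, and without control 2, control 4 or knockout 1, 2 or 4 (adjusted p from 0.0524 to 0.0613).

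The other 5 ring genes did not pass. Ppat, the committed first step, was at 2.95 ± 0.323 FPKM in the controls and 3.03 ± 0.780 in the knockouts, and Gart, which carries 3 of the steps, was at 12.0 ± 1.04 and 12.0 ± 0.875. Paics had a log2 difference of -0.06 and Adsl, which also acts in the AMP branch, one of -0.18 (adjusted p = 0.106). Pfas was at 1.92 to 2.85 FPKM in the controls and 2.87 to 3.27 in the knockouts, without overlap but also without passing (log2 difference 0.21, adjusted p = 0.127). Ppat and Paics lie head to head and share 272 exonic bases, which are 6.15% of Ppat and 8.67% of Paics.

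The completed ring, inosine monophosphate, is turned into GMP or AMP. All 3 genes of the GMP branch passed, where 32.2% of all genes tested were called. They went in opposite directions: both IMP dehydrogenase genes fell and GMP synthetase rose. Impdh2 (chromosome 9, 108560436 to 108565577), the more abundant IMP dehydrogenase here, was at 44.4, 55.7, 57.2 and 54.3 FPKM in the controls and at 41.7, 41.6, 39.8 and 39.1 in the knockouts. The knockouts were tightly grouped below all controls, and control 1 was the control nearest to them. The mean fell from 52.9 ± 5.78 to 40.6 ± 1.29 FPKM, to 0.767 of the control level (log2 difference -0.37, SE 0.08, adjusted p = 0.00921).

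Impdh1 (chromosome 6, 29200436 to 29216364) was at 17.9, 20.9, 19.4 and 20.7 FPKM in the controls and at 16.4, 17.1, 16.7 and 15.9 in the knockouts. The groups did not overlap. The mean fell from 19.8 ± 1.39 to 16.5 ± 0.503 FPKM, to 0.837 of the control level (log2 difference -0.24, SE 0.06, adjusted p = 0.0177). The call was lost when libraries were scaled to the sum without small RNAs, where the log2 difference was -0.17, and with odd-numbered libraries alone, where it was -0.16.

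GMP synthetase, Gmps (chromosome 3, 63963633 to 64021554), which aminates XMP to GMP, was at 6.08, 6.17, 6.08 and 5.37 FPKM in the controls and at 7.29, 7.63, 7.56 and 8.15 in the knockouts. The groups did not overlap. Its level rose from 5.92 ± 0.372 to 7.66 ± 0.360 FPKM, a fold of 1.29 (log2 difference 0.32, SE 0.06, adjusted p = 0.00512). The level of Gmps remained several-fold under that of Impdh2 in every library.

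In the AMP branch 1 of the 2 adenylosuccinate synthetase genes passed, where 32.2% of all genes tested were called. Adssl1 (chromosome 12, 112620047 to 112641355), the isozyme best known from striated muscle, was at 8.64, 12.1, 9.90 and 11.6 FPKM in the controls and at 15.9, 17.0, 18.7 and 16.7 in the knockouts. All knockouts lay above all controls. On average it rose from 10.6 ± 1.58 to 17.1 ± 1.19 FPKM, a fold of 1.62 (log2 difference 0.65, SE 0.10, adjusted p = 0.00167). With the striated muscle markers as a covariate it was 0.68 (adjusted p = 0.00321). Those markers summed to 64.0, 4.40, 5.62 and 47.8 FPKM in knockouts 1 to 4. Adssl1 was at 17.0 and 18.7 FPKM in knockouts 2 and 3, where the sum was low, and at 15.9 and 16.7 in knockouts 1 and 4. In control 4, where the sum was highest at 262 FPKM, Adssl1 was at 11.6 FPKM. What share striated muscle RNA has in the rise was not tested. Adss, the widely expressed isozyme, was at 31.0, 34.2, 30.8 and 35.0 FPKM in the controls and at 25.2, 30.4, 25.6 and 32.2 in the knockouts. The groups overlapped, and the log2 difference of -0.21 did not pass (adjusted p = 0.116). It passed with the replicate number as a block (adjusted p = 0.0289).

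The genes that supply the ribose phosphate PRPP or use it in purine salvage gave no call. Of these 4 genes, 0 passed by limma and 0 had an unadjusted p under 0.05. Of all genes 32.2% were called, and 5231 of 12107 had an unadjusted p under 0.05. Prps1, which makes PRPP, was at 10.6, 11.1, 10.2 and 11.5 FPKM in the controls and at 7.08, 11.2, 6.83 and 10.5 in the knockouts. Knockouts 1 and 3 were below every control, while knockouts 2 and 4 lay inside the control range. Its log2 difference was -0.28 (95% interval -0.62 to 0.05). Prps2 was the more abundant of the pair, at 28.1 ± 2.72 FPKM in the controls and 27.8 ± 2.95 in the knockouts. The salvage enzymes Hprt and Aprt had log2 differences of 0.09 (adjusted p = 0.352) and -0.13 (adjusted p = 0.171). The 4 control values of Hprt were almost alike, at 36.4 ± 0.0519 FPKM.

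Of the 8 pyrimidine and deoxynucleotide members tested, 1 rose, 2 fell and 5 did not pass, which is 37.5% called against 32.2% of all genes, with a median log2 difference of 0.07. Cad (chromosome 5, 31054620 to 31078479), the enzyme with 3 activities that begins pyrimidine synthesis, was at 5.50, 5.06, 6.27 and 5.76 FPKM in the controls and at 5.07, 4.24, 4.73 and 4.28 in the knockouts. Knockout 1 lay just above control 2, so the groups overlapped. From 5.65 ± 0.507 FPKM in the controls the mean fell to 4.58 ± 0.392, with a log2 difference of -0.25 (SE 0.08) and an adjusted p of 0.0404. This call was fragile: it was kept in 8 of 22 alternative analyses, over which the log2 difference ran from -0.30 to -0.18.

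The next genes after Cad, Dhodh and Umps, did not pass. Dhodh, the mitochondrial dehydrogenase, was at 5.01 to 5.70 FPKM in the controls and at 5.84 to 5.91 in the knockouts, without overlap (log2 difference 0.12, adjusted p = 0.153). Umps, which completes UMP, was at 4.89, 3.60, 5.19 and 3.72 FPKM in the controls and at 6.42, 4.44, 5.59 and 5.06 in the knockouts. The groups overlapped and the log2 difference of 0.26 did not pass (adjusted p = 0.164), although it did with the replicate number as a block (adjusted p = 0.0343).

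CTP synthase is encoded by a pair of genes. Ctps was at 24.9, 19.9, 33.3 and 16.3 FPKM in the controls and at 15.4, 17.0, 14.8 and 14.6 in the knockouts. The controls were widely scattered, and control 4 lay below knockout 2. The log2 difference of -0.54 (95% interval -0.96 to -0.12) narrowly missed the threshold (adjusted p = 0.0533). It passed in 4 of 22 alternative analyses, among them without control 4 (-0.69) and with odd-numbered libraries alone (-0.89, adjusted p = 0.0176). With even-numbered libraries alone it was -0.18 (adjusted p = 0.333). Ctps2 was at 7.27 to 9.01 FPKM in the controls and at 9.20 to 9.55 in the knockouts, without overlap (log2 difference 0.19, adjusted p = 0.0797).

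Deoxynucleotides are made from ribonucleotides by ribonucleotide reductase and, for thymidylate, by Tyms with a folate-borne carbon. Rrm1 (chromosome 7, 102441695 to 102469771), the large subunit of the reductase, was at 5.17, 5.22, 5.44 and 5.64 FPKM in the controls and at 6.11, 7.14, 6.83 and 7.51 in the knockouts. The groups did not overlap. Expression rose from 5.37 ± 0.219 to 6.90 ± 0.593 FPKM, a fold of 1.28 (log2 difference 0.31, SE 0.07, adjusted p = 0.0103). Rrm2, the small subunit that cycling cells make, reached at most 1.17 FPKM in any library and was not tested, at 0.720 ± 0.146 FPKM in the controls and 0.990 ± 0.168 in the knockouts. Rrm2b, the small subunit of resting cells, was at 8.45 ± 0.849 and 8.64 ± 1.48 FPKM (log2 difference 0.02).

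Tyms (chromosome 5, 30038546 to 30073645) went the other way from Rrm1. It was at 4.15, 4.15, 3.88 and 4.41 FPKM in the controls and at 3.31, 3.63, 3.55 and 2.61 in the knockouts. The groups did not overlap, and knockout 4 was the lowest library. From 4.15 ± 0.215 FPKM the mean fell to 3.28 ± 0.463, with a log2 difference of -0.27 (SE 0.09) and an adjusted p of 0.0484, a call kept in 6 of 21 alternative analyses and lost with the replicate number as a block (adjusted p = 0.0733). Beside these genes, 3 of the 5 dividing-cell markers tested rose, where 17.1% of all genes were called higher, and 7 of the 10 on the list lay above every control in every knockout. Among tested genes, 4 of the 5 markers lay so, against 2219 of all 12107. The dividing-cell list of 10 summed to 44.4 to 50.9 FPKM in the controls and 62.2 to 66.0 in the knockouts. Its highest gene, Pcna, was at 36.8 ± 2.94 and 48.7 ± 1.01 FPKM. Mki67, Top2a and Cdk1 were among the 7 but too low to be tested. Mki67 was at 0.365 ± 0.0617 and 0.706 ± 0.179 FPKM, Top2a at 0.506 ± 0.140 and 0.934 ± 0.234, and Cdk1 at 0.197 ± 0.0819 and 0.491 ± 0.131. The part of these markers in the rise of Rrm1 was not tested.

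None of the 4 methionine-cycle members tested passed by limma, and 0 had an unadjusted p under 0.05. Of all genes 32.2% were called, and 5231 of 12107 had an unadjusted p under 0.05. Mat2a, which makes S-adenosylmethionine, had the highest level of all members, at 68.9 to 77.5 FPKM in the controls and 67.0 to 75.2 in the knockouts (log2 difference -0.04, 95% interval -0.17 to 0.09). Ahcy, which clears S-adenosylhomocysteine, had a log2 difference of 0.04 (95% interval -0.09 to 0.16), and methionine synthase, Mtr, one of -0.02 (-0.18 to 0.14). The upper ends of these 3 intervals lie below the estimate of each serine gene. The 95% interval of Psph, 0.12 to 0.42, still overlaps those of Ahcy and Mtr, and the genes were not tested against each other. Cbs, which draws homocysteine toward cysteine, was at 1.71, 4.28, 1.74 and 3.61 FPKM in the controls and at 3.54, 4.75, 3.18 and 5.20 in the knockouts. Libraries 2 and 4 were the higher ones in both genotypes. The log2 difference of 0.48 had a 95% interval from -0.07 to 1.02 (adjusted p = 0.165) and passed with the replicate number as a block (adjusted p = 0.0226). Cth, the next enzyme toward cysteine, was at 0.644 ± 0.207 FPKM in the controls and 1.07 ± 0.318 in the knockouts and was not tested.

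Several members, called or not, separated by replicate number within a genotype. Phgdh was higher in libraries 2 and 4 than in libraries 1 and 3 in both genotypes. The called members Atic, Gmps and Rrm1 showed the same order in the knockouts. In the knockouts Mthfd1l, Prps1, Adss and Cbs were all higher in libraries 2 and 4 than in libraries 1 and 3, while Aldh1l1 was higher in libraries 1 and 3. With odd-numbered libraries alone the log2 difference of Prps1 was -0.52 and passed, and with even-numbered libraries alone it was -0.05. For Aldh1l1 the values were 1.54 and 0.84, and for Phgdh 0.66 and 0.75, and all of these passed. Of the called members, only Phgdh, Psat1, Aldh1l1 and Adssl1 passed with odd-numbered libraries alone. Psph, Atic, Gmps, Rrm1, Impdh1, Impdh2, Cad and Tyms did not. The difference between odd and even libraries in the genotype effect, tested as an interaction over all genes, passed by limma for 0 of the 37 members and for 196 genes in all, and 10 members had an unadjusted p under 0.05. With a covariate for odd or even numbers, 11 members were called higher and 7 lower, and the calls over all genes rose as well, from 2074 to 2636 higher and from 1819 to 2353 lower. The labels do not say what the numbers stand for.

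**Figure D3:**
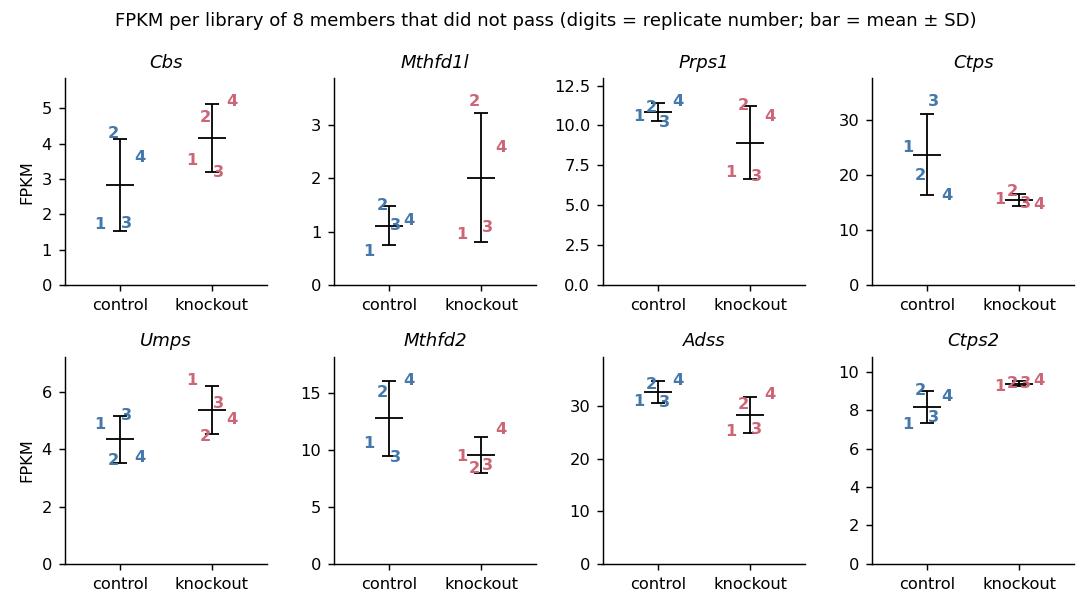
FPKM of 8 members that did not pass, picked after their values were seen; digits are replicate numbers of the 4 control (blue) and 4 knockout (red) libraries, and bars are mean ± SD. In Cbs, libraries 2 and 4 are the higher ones in both genotypes, and in Mthfd1l and Prps1 they are the higher knockouts.

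Ratios of paired isozymes were compared within each library, since a ratio is unaffected by scaling of the whole library apart from the constant added to each value. For 8 pairs the log2 ratio of (FPKM + 1) was tested by an exact two-sided permutation test over the 70 ways to assign the libraries, for which the smallest possible p is 0.0286. The cytosolic-to-mitochondrial ratio Aldh1l1/Aldh1l2 was 0.742, 0.687, 0.669 and 0.617 in the controls and 1.99, 1.10, 2.35 and 1.18 in the knockouts, so that the cytosolic gene went from the lower to the higher of the pair in every library. Adss/Adssl1 was 3.32, 2.69, 2.91 and 2.86 in the controls and 1.54, 1.74, 1.35 and 1.88 in the knockouts. Ctps/Ctps2 was 3.14, 2.09, 3.99 and 1.78 in the controls and 1.61, 1.73, 1.52 and 1.47 in the knockouts. These 3 pairs did not overlap between genotypes and each had the smallest p the exact permutation test allows, 0.0286, which became 0.0762 when adjusted over the 8 pairs, so that 0 of 8 passed. Impdh1/Impdh2 had a log2 ratio that was higher by 0.13 in the knockouts (exact permutation p = 0.0571). Both genes fell, and their ratio stayed between 0.351 and 0.434 in every library. The other 4 pairs, Shmt1/Shmt2, Mthfd2/Mthfd2l, Prps1/Prps2 and Rrm2/Rrm2b, overlapped, with exact permutation p from 0.114 to 0.514.

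**Figure D4:**
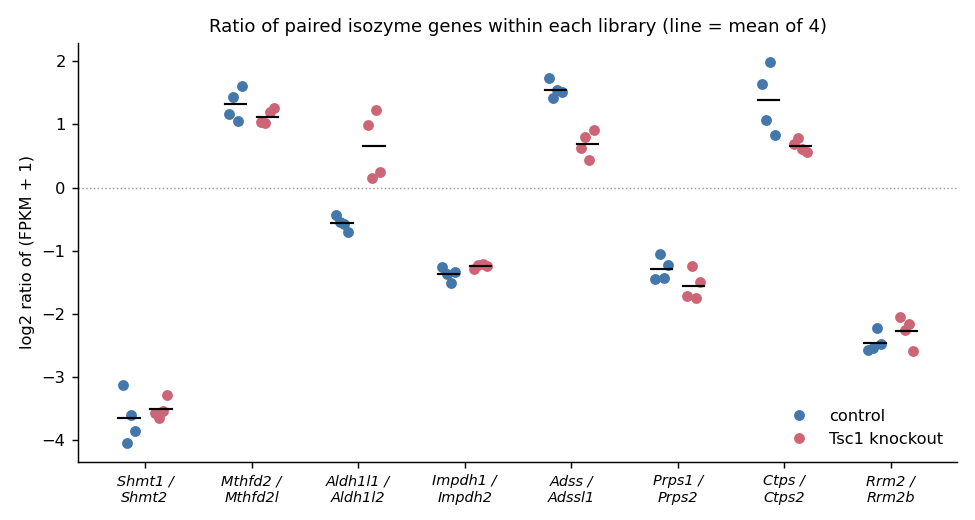
Log2 ratio of (FPKM + 1) of the first to the second gene of 8 isozyme pairs on the y axis; each point is 1 library (blue control, red Tsc1 knockout, 4 each) and lines are means. Aldh1l1/Aldh1l2, Adss/Adssl1 and Ctps/Ctps2 show no overlap between the genotypes.

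Levels differed widely between the steps. Averaged over the 8 libraries, Mat2a stood highest at 72.3 FPKM, followed by Impdh2 at 46.7, Paics at 45.0 and Hprt at 37.6. Impdh2 and Paics were in this order only through the controls: in the knockouts Paics, at 44.1 ± 3.60 FPKM, was above Impdh2, at 40.6 ± 1.29, with SDs that overlap. At the low end were Shmt1 at 0.434, Cth at 0.854 and Rrm2 at 0.855 FPKM. The serine genes were of low to middling abundance, and in both genotypes Phgdh was the highest of them. In the controls Psat1 was below Psph in every library, and in the knockouts it was above Psph in every library.

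Other genes of these pathways were taken as 6 lists that complete the same steps. Of 13 tested genes that use serine and glycine or move them across membranes, 7 rose and 1 fell, which is 61.5% called against 32.2% of all genes, and the median log2 difference was 0.19 against 0.01. Sdsl, a serine dehydratase-like gene, was at 1.56, 0.791, 1.23 and 1.20 FPKM in the controls and at 10.7, 4.01, 9.74 and 5.52 in the knockouts. All knockouts lay far above the controls, again with libraries 1 and 3 the highest, and the log2 difference of 1.88 passed (adjusted p = 0.00100). The neutral amino acid carrier Slc1a4, which takes up serine, rose from 9.86 ± 0.410 to 14.2 ± 0.608 FPKM. Sptlc1, a subunit of the enzyme that condenses serine with palmitoyl-CoA, rose from 12.9 ± 0.396 to 15.9 ± 0.183 FPKM. Slc1a5, a glutamine carrier that also takes serine, fell from 76.7 ± 8.66 to 56.9 ± 6.76 FPKM (log2 difference -0.42, adjusted p = 0.0151). Of 13 tested genes of folate uptake and other folate enzymes, 0 rose and 2 fell. That is 15.4% called, where 32.2% of all genes were called and 15.0% were called lower. Fpgs, which retains folate in cells, fell from 7.70 ± 0.552 to 6.39 ± 0.618 FPKM, and Mthfsd from 8.11 ± 0.122 to 6.78 ± 0.317 FPKM. The call on Fpgs was lost in 12 of 22 alternative analyses.

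Among 15 tested genes of pyrimidine salvage and breakdown, 2 rose, 5 fell and 8 did not pass, so that 46.7% were called against 32.2% of all genes. The 2 that rose both act in breakdown. Dpyd, which starts the breakdown of uracil and thymine, was at 0.687, 0.407, 0.426 and 0.442 FPKM in the controls and at 3.77, 1.78, 4.27 and 1.99 in the knockouts. Upb1, which ends it, was at 0.901, 1.27, 0.830 and 1.60 FPKM in the controls and at 5.14, 4.78, 4.94 and 5.08 in the knockouts. For both genes every knockout exceeded every control, with log2 differences of 1.36 (adjusted p = 0.00173) for Dpyd and 1.49 (adjusted p = 6.64e-05) for Upb1. Uck2, a kinase that salvages uridine and cytidine, fell from 13.1 ± 0.352 to 8.71 ± 0.225 FPKM (log2 difference -0.54, adjusted p = 0.000146). Nt5c3b fell from 35.1 ± 2.19 to 26.1 ± 2.03 FPKM, and Dut, which removes dUTP, from 7.74 ± 0.997 to 5.76 ± 0.473 FPKM.

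Among 19 tested genes of purine salvage and breakdown, 4 rose, 3 fell and 12 did not pass, which is 36.8% called against 32.2% of all genes. Samhd1, which degrades deoxynucleotide triphosphates, rose from 15.2 ± 1.24 to 25.6 ± 2.11 FPKM, a log2 difference of 0.71 (adjusted p = 0.000349). Nudt5 rose from 5.99 ± 0.637 to 8.40 ± 1.51 FPKM and Nt5c from 42.9 ± 3.45 to 52.8 ± 4.15 FPKM. Nt5e, the surface enzyme that makes adenosine from AMP, fell from 1.93 ± 0.413 to 0.974 ± 0.385 FPKM, a call lost in 8 of 21 alternative analyses. Ada, which deaminates adenosine, fell from 2.72 ± 0.175 to 1.70 ± 0.258 FPKM, and Dguok, a mitochondrial deoxyguanosine kinase, from 22.5 ± 2.79 to 17.2 ± 2.07 FPKM. The call on Dguok was lost in 5 of 22 alternative analyses, and those on Nudt5 and Nt5c in 4 of 22 each.

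Of 16 tested genes of the methionine cycle, methionine salvage and polyamines, 5 rose and 3 fell, which is 50.0% called against 32.2% of all genes, with a median log2 difference of -0.05. Sat1, which acetylates polyamines for breakdown, rose from 140 ± 23.0 to 211 ± 10.4 FPKM. Adi1 of methionine salvage rose from 16.4 ± 1.08 to 25.0 ± 0.868 FPKM, and Nnmt, which spends methyl groups on nicotinamide, from 17.7 ± 2.36 to 25.8 ± 2.84 FPKM. Odc1, the first enzyme of polyamine synthesis, fell from 46.9 ± 5.49 to 33.9 ± 3.21 FPKM, and Gamt, which methylates guanidinoacetate to creatine, from 23.3 ± 2.73 to 15.5 ± 1.72 FPKM. The call on Amd1 is uncertain, since reads may be split with a near-identical copy: its controls ran from 0.0170 to 12.6 FPKM and all knockouts lay near 0.0174. Of 6 tested genes of glutathione synthesis, Gclc rose, from 11.7 ± 1.23 to 16.8 ± 1.77 FPKM, and 5 did not pass. That is 16.7% called, against 32.2% of all genes.

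**Figure D5:**
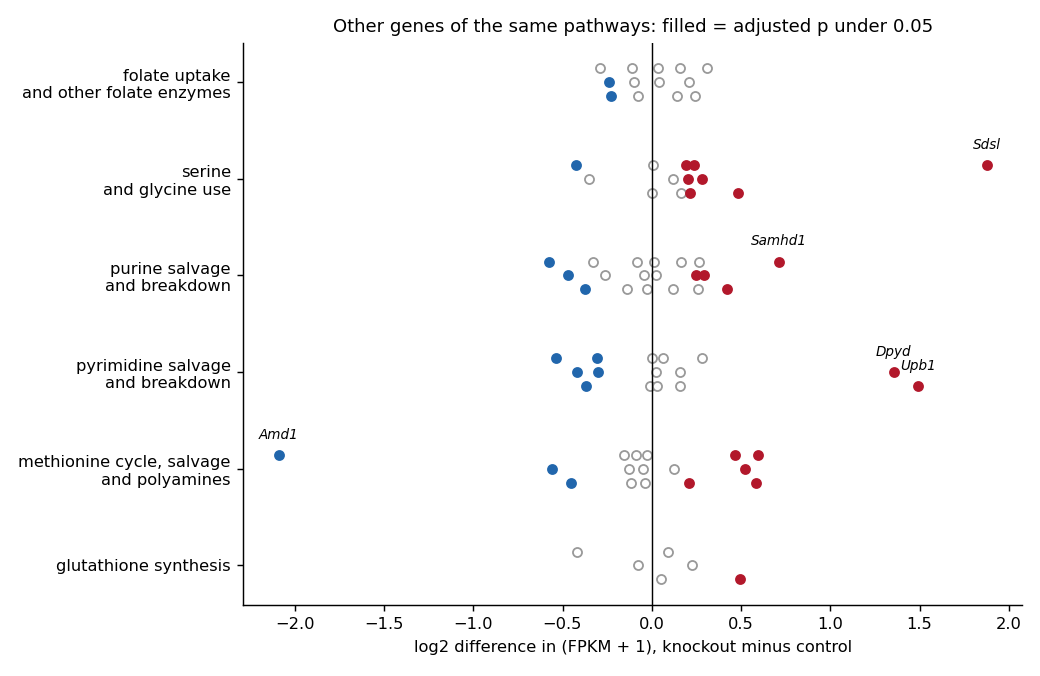
Log2 difference in (FPKM + 1), knockout minus control, of the tested genes in 6 further lists of the same pathways, 1 point per gene; filled red and blue points passed as higher or lower and open points did not. Sdsl, Upb1 and Dpyd lie farthest to the right, and Amd1, whose call is uncertain, farthest to the left.

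Among the factors known to control the members, 1 of 11 tested rose, 2 fell and 8 did not pass. That is 27.3% called, against 32.2% of all genes. Atf4, whose protein is set largely by translation, was at 120, 147, 126 and 126 FPKM in the controls and at 99.1, 97.7, 101 and 74.8 in the knockouts. The groups did not overlap, and the transcript fell from 130 ± 12.2 to 93.1 ± 12.3 FPKM, with a log2 difference of -0.48 (SE 0.11, adjusted p = 0.00976), a direction opposite to that of Phgdh, Psat1 and Psph. Myc fell from 1.96 ± 0.412 to 1.22 ± 0.280 FPKM (adjusted p = 0.0386), a call kept in 12 of 21 alternative analyses. Nfe2l2, which encodes the oxidative stress factor NRF2, rose from 36.3 ± 5.29 to 50.8 ± 4.61 FPKM (log2 difference 0.48, adjusted p = 0.0101). Max, Mlx, Mlxip, Srebf1, Srebf2, Gsk3b and the S6 kinase genes Rps6kb1 and Rps6kb2 did not pass, with log2 differences from -0.19 for Mlxip to 0.07 for Mlx.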

How the data were processed

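RNA was polyA-selected from whole thoracic aortas, per the labels' protocols, and 4 control and 4 knockout libraries were grouped by their labels. The deposited table holds FPKM per gene and library as made by the authors. TopHat2, Cufflinks, Cuffdiff and the mm10 build are named in the submitters' processing notes. As to annotation, strand setting and library scaling, these were not given in the sources used here. Read counts are not used here, so the absolute depth is unknown and no counting interval can be given.

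Genes whose 8 libraries averaged 1 FPKM or more were fitted on log2(FPKM + 1) with limma 3.58.1 in R 4.3.3 (eBayes with a mean-variance trend, no covariate, two-sided). The constant of 1 understates the change of low genes. Benjamini-Hochberg adjustment ran over all 12107 genes tested. The fit was tested on simulated data with known changes. Isozyme ratios used an exact permutation test in SciPy 1.17.1. Alternatives were a constant of 0.1, no filter, a mean of at least 5 FPKM, quantile, median-of-ratios and sum scaling, no trend, library weights, the replicate block, odd and even libraries, marker covariates and each library left out.

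All 40 members are accounted for, with each library's value for those that passed. Of each other pathway list up to 3 genes with the largest called rise and up to 3 with the largest called fall are named, and any regulator that reached the filter. The members, lists and motifs were chosen with earlier results of these data known. Upstream windows and gene positions are RefSeq's on GRCm38.p6, and exon overlaps are from GENCODE vM21.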

Additional observations from a re-analysis of the deposited data

Results flagged for a closer look

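In groups of 4 libraries, a value is given here when its gap to the nearest other library, divided by the whole range of the group, exceeds Dixon's critical value. Chance gives about 1 such value in 20 groups. There were 9 in 80 groups of members and 17 in 150 groups with the other named genes.

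Among the members, values high for their group were Mthfd1 in control 3 (11.0 FPKM), Pfas in knockout 1 (3.27 FPKM) and Adsl in knockout 2 (9.57 FPKM). Values low for their group were Gmps in control 4 (5.37 FPKM), Hprt in control 1 (36.3 FPKM) and in knockout 3 (33.9 FPKM), Dhodh in knockout 2 (5.84 FPKM), Mtr in knockout 3 (3.49 FPKM) and Cth in control 3 (0.333 FPKM). The flagged values of Hprt in control 1 and Dhodh in knockout 2 come from groups whose libraries differ by less than 0.2 FPKM.

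Among the other genes, high values were Dpyd in control 1 (0.687 FPKM), Adi1 in knockout 1 (26.3 FPKM), Gamt in control 3 (27.4 FPKM) and Gsk3b in knockout 4 (16.3 FPKM). Low values were Odc1 in control 1 (38.8 FPKM), Gclc in control 3 (9.83 FPKM), Mlxip in control 4 (14.4 FPKM) and Atf4 in knockout 4 (74.8 FPKM). Without any 1 library, Atf4 was still called lower.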

How the results depend on the processing

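No call on a member reversed. Of 802 comparisons of a member with its value under 22 other settings, 741 kept their side of the threshold, 43 lost a call and 18 gained one, and the 48 sign changes were all in values called in neither fit. Phgdh, Psat1, Aldh1l1 and Adssl1 were called under every setting that could test them. The count of 8 members called higher was 5 with a mean of at least 5 FPKM, which tests fewer genes, and it ran from 7 to 8 when 1 library was left out. With odd-numbered libraries alone it was also 5, namely Phgdh, Psat1, Aldh1l1, Adssl1 and Cbs, of which Cbs is not among the 8. The 3 members called lower in those libraries were Prps1, Adss and Ctps. Impdh1, Impdh2, Cad and Tyms did not pass there. The count of 4 called lower was 2 without a filter, 2 with a mean of at least 5 FPKM, 2 with library weights, 2 with even-numbered libraries alone, 2 with fat cell markers as a covariate, 1 with sum scaling and 7 with a covariate for odd or even numbers. It ran from 2 to 3 when 1 library was left out, and was 2 without control 1, control 3, knockout 3 or knockout 4. The causes were not tested. Over all genes the counts of 2074 higher and 1819 lower ran from 1696 to 1889 and from 1454 to 1620 without 1 library, and no setting moved them by over 1.5 times.

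With the replicate number as a block, 9 members were called higher and 4 lower, and 2349 and 2122 genes in all. Same-numbered libraries correlated at 0.0656 to 0.173 in their deviations from the group means, and 3 of 8 libraries correlated best with their own number. Differently numbered libraries that were both odd or both even correlated at 0.0160 to 0.160. Odd with even ones correlated at -0.193 to -0.0547. All 4 same-number pairs were positive but 1 was under 0.1, and the labels give no pairing, so the numbers were not taken to pair the samples. For the isozyme ratios, 0 of 8 pairs passed with a constant of 0.1 or with the block, where a sign-flip test cannot go below 0.125. Ratios without 1 library, or within odd or even libraries, were not run because so few libraries cannot reach the threshold. The low FPKM of Shmt1, Rrm2, Cth and Mthfd1l limits what can be said of them.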
